A study of Mus musculus with 12 samples.

Results

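The heavy-chain constant regions of immunoglobulin, the kappa light chain and a pair of plasma cell genes were followed in the immune cell fraction of the mouse liver. The members are 10 of the 40840 genes in the files and were chosen by name: the naive isotypes Ighm and Ighd, the switched isotypes Igha, Ighg1, Ighg2b, Ighg2c and Ighg3, the light chain Igkc, and the plasma cell genes Jchain and Xbp1. They were chosen because of how they differ between the diets in these libraries, so their levels by diet are given below as a description. Nothing is read from how many of them the diet tests called, or from how their median differs from that of all genes. All 10 members lay above the lowest listed value in all 12 libraries, so the filter on low values removed none of them.

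The study compared normal chow diet (NCD) with high-fat diet (HFD) in wild-type (WT) mice and in mice that lack caspase-11 (Casp11-/-), a cytosolic sensor of lipopolysaccharide that is encoded in the mouse by Casp4. WT mice were C57BL/6 in the labels and C57BL/6J in the study's methods, and the knockout strain was B6.129S4(D2)-Casp4tm1Yuan/J, so genotype and strain origin cannot be told apart. All mice were male, entered the diets at 8 to 10 weeks of age and stayed on them for 12 weeks. The 4 groups, written here as WT-NCD and WT-HFD for wild-type mice and as Casp11-/- NCD with Casp11-/- HFD for the knockout, had 3 libraries of total RNA each, and nothing in the labels ties a replicate number to a litter, cage or day. The labels call the material hepatic macrophages, but the cells were separated from hepatocytes by density and were not sorted.

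A B cell first joins its variable region to the constant regions mu and delta and carries IgM and IgD on its surface. After activation, class switch recombination cuts out the DNA between the variable region and a constant gene farther downstream, so that the same antigen specificity is made as IgG or IgA. Plasma cells are the secreting end stage of this lineage and hold far more immunoglobulin mRNA than a B cell does. IgA plasma cells are known best from the gut, and IgA reaches the bile through the liver, where part of it comes from plasma cells of the liver itself.

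The 7 heavy-chain genes lie on the minus strand of chromosome 12. The 5 switched isotypes follow Ighm and Ighd there, in the order in which switching can reach them. Distances from the start of Ighm are 6.406 kb for Ighd, 61.498 kb for Ighg3, 92.207 kb for Ighg1, 114.797 kb for Ighg2b, 133.798 kb for Ighg2c and 162.494 kb for Igha (RefSeq, GRCm38.p6). Igkc lies on chromosome 6 and overlaps the lincRNA Gm30211 on the same strand, with which it may share reads. Jchain lies on chromosome 5 and Xbp1 on chromosome 11.

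The first 60 bases of the first constant exon, which encodes the start of the CH1 domain, are shown to let the isotypes be told apart by eye. They were read 5′ to 3′ from the GENCODE vM21 transcripts of GRCm38, minus strand. Capitals in the IgG sequences mark bases that differ from Ighg2b, and Ighm, Ighd and Igha, which were not aligned to it, are in lower case throughout.
Ighm (chr12:113422671-113422730): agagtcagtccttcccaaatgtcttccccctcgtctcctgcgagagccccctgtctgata
Ighd (chr12:113416265-113416324): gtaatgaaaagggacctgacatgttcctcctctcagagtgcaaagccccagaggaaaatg
Ighg3 (chr12:113361173-113361232): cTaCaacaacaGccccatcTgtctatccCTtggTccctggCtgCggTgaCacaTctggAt
Ighg1 (chr12:113330464-113330523): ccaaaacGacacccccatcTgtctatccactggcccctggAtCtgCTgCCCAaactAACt
Ighg2b (chr12:113307874-113307933): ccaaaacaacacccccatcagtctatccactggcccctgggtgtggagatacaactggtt
Ighg2c (chr12:113288873-113288932): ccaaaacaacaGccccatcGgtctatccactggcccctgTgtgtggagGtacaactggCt
Igha (chr12:113260177-113260236): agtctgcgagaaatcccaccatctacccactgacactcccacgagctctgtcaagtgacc

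Ighg2c differed from Ighg2b at 5 of these 60 bases, and Ighg1 and Ighg3 at 13 each. Ighg2c, the closest to Ighg2b over these bases, also shared a run of 78 identical bases with it. The run goes from base 565 to base 642 of the Ighg2b transcript and is longer than a read of 75 bases:
Ighg2b and Ighg2c: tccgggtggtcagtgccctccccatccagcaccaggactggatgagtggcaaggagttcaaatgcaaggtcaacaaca
Such stretches were rare. Of all 75-base windows in the transcripts of a gene, 20 of 2603 (0.768%) in Ighg2b, 6 of 1251 (0.480%) in Ighg2c and 14 of 2438 (0.574%) in Ighg3 also occurred in another gene, and the other 7 members shared none. Ighg2b shared windows with both Ighg2c and Ighg3, and each of those shared windows with Ighg2b alone. The 3 IgG subclasses with shared windows are therefore uncertain only to that small share of their length, as far as exact matches go.

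Levels are in TPM, transcript abundances that are scaled to gene length and to the total of the library, and the files give no read counts, so the depth behind each value is unknown. No file held a value under 1.01 TPM, a floor that 54.0% to 68.3% of genes shared in 11 of the libraries. WT-NCD replicate 3 stood apart: 39677 genes lay above the floor there against 12940 to 18775 elsewhere, its highest value was 1635 TPM against at least 153305 TPM elsewhere, and Alb, the albumin gene of hepatocytes, was at 6.46 TPM against 4445 TPM or more. Each comparison is therefore given with all 12 libraries and with the 11 others. Casp4 was at 5.60 to 15.6 TPM in the 6 WT libraries and at 2.56 to 15.2 TPM in the 6 Casp11-/- libraries, 2 of which lay within the WT range, so its level alone does not separate the genotypes. Markers of several cell types were present in every library. The summed TPM of 6 B cell markers exceeded that of 6 macrophage markers in 5 of the 11 libraries, namely those of NCD, and since this is bulk RNA, fewer cells of a type and less RNA per cell cannot be told apart.

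In WT mice the members were far lower on HFD than on NCD once WT-NCD replicate 3 was left out, and the switched isotype Igha differed most. With the means of the groups in TPM, Igha was 64.6-fold higher on NCD, against 3.65-fold for Ighm and 5.004-fold for Ighd. Igkc and Jchain lay between, at 21.8-fold and 24.2-fold. In Casp11-/- mice the ratio was 64.1-fold for Igha and 22.1-fold for Jchain, from NCD libraries that varied more, and without Casp11-/- NCD replicate 1 it was 11.1-fold and 5.11-fold.

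**Figure D1:**
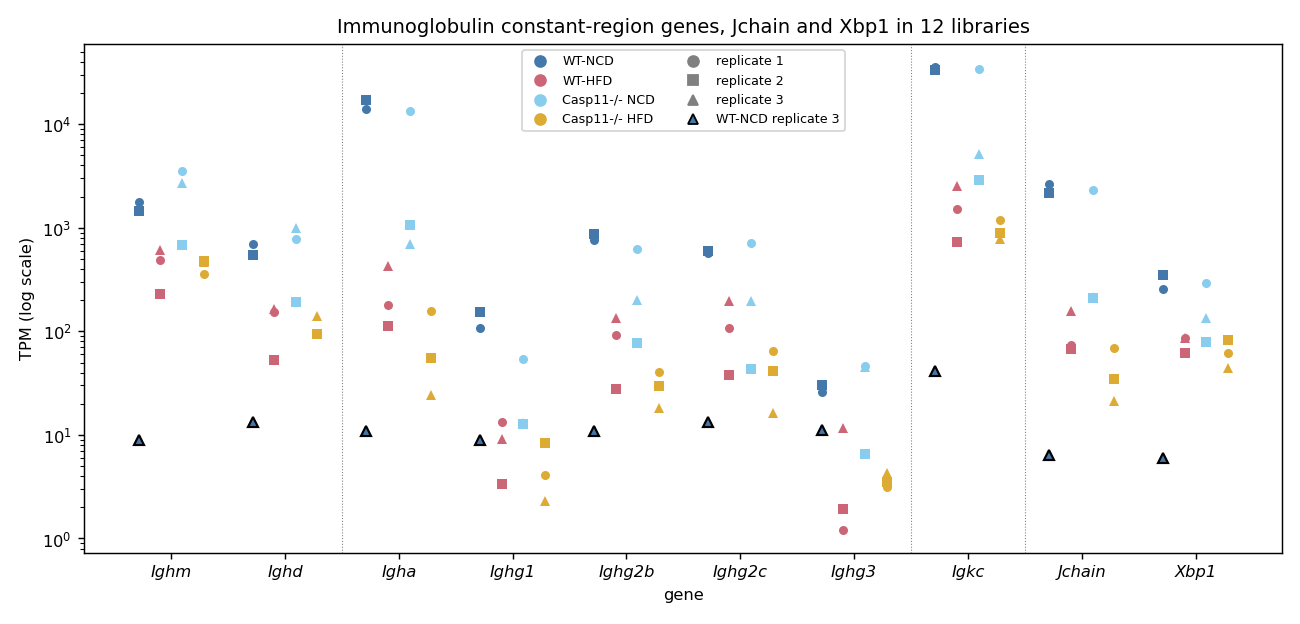
TPM on a log axis of the 10 members in each of the 12 libraries, with colours for the groups and shapes for the replicate numbers. WT-NCD replicates 1 and 2 and Casp11-/- NCD replicate 1 lie at the top for Igkc, Igha and Jchain, and the outlined triangle is WT-NCD replicate 3, where all members are between 5.92 and 41.6 TPM.

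Ighm encodes the mu heavy chain of IgM. It was at 1763, 1458 and 8.92 TPM in WT-NCD and at 489, 228 and 609 TPM in WT-HFD, with the replicates in the order 1, 2 and 3 here and below. In Casp11-/- mice it was at 3531, 680 and 2678 TPM on NCD and at 358, 476 and 467 TPM on HFD. The NCD libraries lay above the HFD libraries in both genotypes, except WT-NCD replicate 3, and the highest value of all was in Casp11-/- NCD replicate 1.

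Ighd encodes the delta heavy chain, which mature naive B cells make from the same transcript unit as mu by alternative splicing. It was at 693, 544 and 13.2 TPM in WT-NCD and at 155, 52.6 and 163 TPM in WT-HFD. For Casp11-/- mice the values were 786, 192 and 1002 TPM on NCD and at 96.3, 94.6 and 139 TPM on HFD. Its order of libraries was close to that of Ighm, with a Pearson correlation of log2(TPM + 1) of 0.979 over the 11 libraries. Those libraries differ in diet and in cell mixture, with which both genes can vary.

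Igha encodes the alpha heavy chain of IgA and is the last constant gene of the locus. It was at 13960, 17151 and 10.9 TPM in WT-NCD and at 179, 112 and 431 TPM in WT-HFD. In Casp11-/- mice it was at 13354, 1055 and 695 TPM on NCD and at 156, 54.8 and 24.4 TPM on HFD. Igha was thus the 9th and 7th highest of all genes in WT-NCD replicates 1 and 2 and the 7th in Casp11-/- NCD replicate 1, but only the 1528th in Casp11-/- HFD replicate 3.

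The IgG subclasses lay below IgA in the NCD libraries other than WT-NCD replicate 3, and Ighg2b and Ighg2c lay above Ighg1 and Ighg3 in each of the 11 libraries. Ighg2b, with Ighg2c one of the main IgG subclasses of C57BL/6 mice, was at 767, 878 and 10.9 TPM in WT-NCD and at 91.6, 27.6 and 136 TPM in WT-HFD. In Casp11-/- mice Ighg2b was at 617, 77.6 and 199 TPM on NCD and at 40.1, 29.4 and 18.1 TPM on HFD. Casp11-/- NCD replicate 2 lay below the highest WT-HFD library, although it was above all Casp11-/- HFD libraries.

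Ighg2c was at 570, 592 and 13.2 TPM in WT-NCD and at 107, 37.8 and 195 TPM in WT-HFD. For Casp11-/- mice the values were 714, 43.3 and 197 TPM on NCD and at 64.7, 41.1 and 16.4 TPM on HFD. It was the single heavy-chain gene whose Casp11-/- groups overlapped, through NCD replicate 2.

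Ighg1 and Ighg3 were the lowest of the members. Ighg1, the subclass linked to type 2 responses, was at 107, 155 and 8.98 TPM in WT-NCD, at 13.3, 3.38 and 9.14 TPM in WT-HFD, at 54.1, 12.6 and 13.0 TPM in Casp11-/- NCD and at 4.12, 8.39 and 2.31 TPM in Casp11-/- HFD. Ighg3, a subclass known from responses to polysaccharides, was at 25.9, 30.0 and 11.1 TPM in WT-NCD, at 1.22, 1.94 and 11.7 TPM in WT-HFD, at 45.9, 6.61 and 45.7 TPM in Casp11-/- NCD and at 3.11, 3.49 and 4.32 TPM in Casp11-/- HFD. Several HFD values are close to the floor, so folds of these genes are more uncertain than those of Igha.

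Igkc encodes the constant region of the kappa light chain, which most mouse antibodies carry whatever their isotype. It was at 35562, 33480 and 41.6 TPM in WT-NCD and at 1512, 729 and 2509 TPM in WT-HFD. In Casp11-/- mice it was at 33923, 2900 and 5149 TPM on NCD and at 1197, 886 and 783 TPM on HFD. It was the highest member in 11 of 11 libraries and ranked 4th of all 40840 genes in WT-NCD replicates 1 and 2 and in Casp11-/- NCD replicate 1.

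Jchain encodes the joining chain that links IgA dimers and IgM pentamers and is made by plasma cells. It was at 2618, 2174 and 6.33 TPM in WT-NCD and at 74.6, 67.0 and 155 TPM in WT-HFD. For Casp11-/- mice the values were 2327, 210 and 214 TPM on NCD and at 68.7, 34.6 and 21.1 TPM on HFD. Jchain followed Igha more closely than any other member, with a correlation of 0.995 over the 11 libraries, while Igha and Ighm had one of 0.788.

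Xbp1 encodes a transcription factor of the unfolded protein response that plasma cells need for secretion and that hepatocytes and other cells express too. It was at 254, 348 and 5.92 TPM in WT-NCD and at 85.8, 61.8 and 87.2 TPM in WT-HFD. In Casp11-/- mice it was at 293, 78.7 and 134 TPM on NCD and at 61.6, 83.1 and 44.4 TPM on HFD. Its diet ratio of group means was 3.85-fold in WT and 2.68-fold in Casp11-/- mice, and the Casp11-/- groups overlapped. The values are sums over transcripts, so the spliced active form of Xbp1, and the secreted and membrane forms of the heavy chains, could not be separated.

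The fit across all genes gave log2 fold changes of log2(TPM + 1) from limma. With the 11 libraries, HFD minus NCD in WT mice was -6.23 for Igha (SE 0.928), -4.68 for Jchain (SE 0.777), -4.62 for Igkc (SE 0.886), -3.92 for Ighg1, -3.53 for Ighg2b, -2.73 for Ighg3, -2.64 for Ighg2c, -2.47 for Ighd, -1.97 for Ighm (SE 0.694) and -1.93 for Xbp1. The median over the members was -3.13, beside -0.27 over all 17950 genes tested. All 10 members were lower in each WT-HFD library than in both remaining WT-NCD libraries, and so were 40.3% of all genes. At an adjusted p under 0.05, 7 of 10 members were called lower (all but Ighm, Ighg2c and Xbp1) against 2.04% of all genes called lower. Since the members were chosen on this contrast, nothing is read from their median or from that count. With WT-HFD replicate 2 left out as well it was 4 (1.02% of all genes called lower), and with the protein-coding genes set to a common total it was 5 (1.15%).

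With all 12 libraries, limma called 0 of 10 members in this comparison, against 0.103% of all genes called lower and 0.0103% called higher. The median over the members was -1.44 beside -0.51 over all genes. Ighm was then at +0.47 (SE 1.80), the single member with a positive sign. No member was free of overlap between WT-HFD and the 3 WT-NCD libraries, against 13.7% of genes that were lower with no overlap.

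Igha again had the most negative value without caspase-11. HFD minus NCD in Casp11-/- mice, with the spread of the 11 libraries, was -5.14 for Igha (SE 0.830), -3.64 for Jchain (SE 0.695), -3.08 for Igkc (SE 0.793), -2.89 for Ighg2b, -2.47 for Ighg3, -2.34 for Ighg2c, -2.29 for Ighd, -2.11 for Ighm (SE 0.621), -2.02 for Ighg1 and -1.24 for Xbp1. The median over the members was -2.40, beside -0.51 over all genes. Igha, Ighg2b and Jchain were called lower, 3 of 10 members against 0.986% of all genes. Nothing is read from the median or from that count either, since the members were chosen on the diet contrast. The count is given below with single libraries left out, each with the share of all genes called lower in that fit. Without Casp11-/- NCD replicate 2 it was 10 (46.1% of all genes), without its replicate 1 it was 1 (0.136%), without its replicate 3 it was 2 (0.431%) and without Casp11-/- HFD replicate 3 it was 2 (0.582%). Leaving out WT libraries, which enter only through the spread, gave 6 for WT-NCD replicate 1 (1.37%), 6 for WT-NCD replicate 2 (1.36%), 6 for WT-HFD replicate 3 (1.29%) and 5 for WT-HFD replicate 1 (1.17%). The 3 libraries of each diet did not overlap for 8 members (all but Ighg2c and Xbp1), against 16.4% of all genes that were lower with no overlap. With the spread of all 12 libraries, 0 members were called, as were 0% of all genes in either direction.

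**Figure D2:**
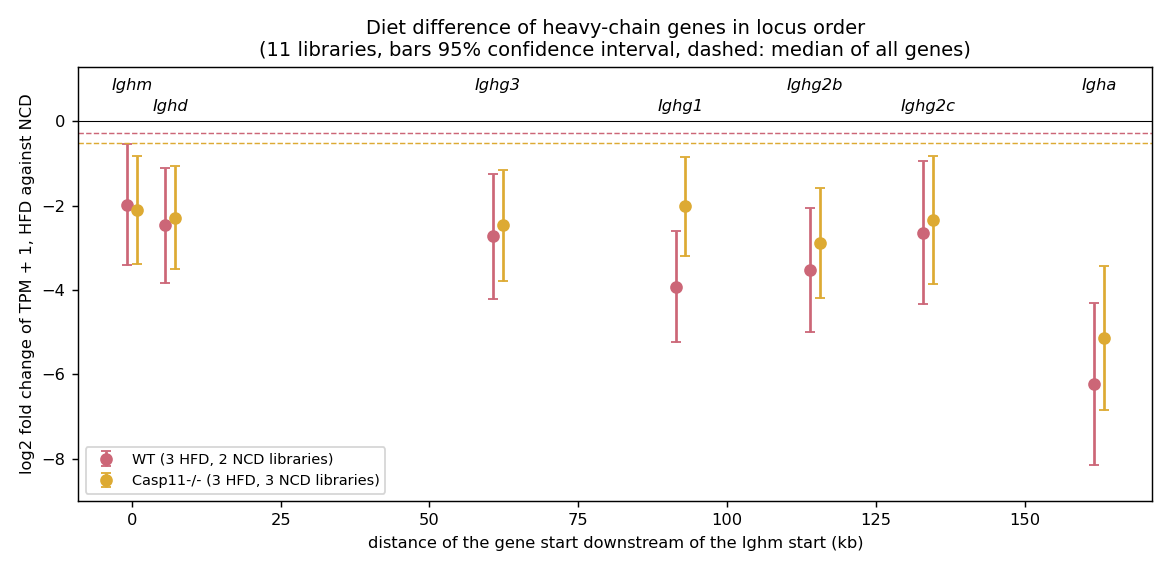
Log2 fold change of TPM + 1, HFD against NCD, for the 7 heavy-chain genes, placed by distance in kb from the start of Ighm, with limma's 95% confidence interval over 11 libraries. Igha, at 162.494 kb, has the most negative value in both genotypes (-6.23 and -5.14), while Ighm and Ighd at the other end lie near -2, and the dashed lines give the medians of all genes (-0.27 in WT, -0.51 in Casp11-/-).

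Shares within a library do not depend on how libraries are scaled to each other, so the heavy-chain TPM of each library was divided among the isotypes. The switched isotypes made up 86.3% and 90.4% of heavy-chain TPM in WT-NCD replicates 1 and 2 and 37.8%, 39.5% and 50.3% in WT-HFD. The Casp11-/- libraries had 77.4%, 57.8% and 23.8% on NCD and 37.2%, 19.4% and 9.74% on HFD. The WT groups were far apart, but Casp11-/- NCD replicate 3 lay inside the Casp11-/- HFD range.

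IgA made up most of the switched share in the NCD libraries other than WT-NCD replicate 3. In that library, WT-HFD replicate 1 and Casp11-/- HFD replicates 2 and 3 the IgG subclasses together exceeded it. Igha alone was 78.0% and 82.4% of heavy-chain TPM in WT-NCD replicates 1 and 2 and 17.3%, 24.2% and 27.7% in WT-HFD. It was 69.9%, 51.0% and 14.4% in Casp11-/- NCD and 21.6%, 7.73% and 3.63% in Casp11-/- HFD. The IgG subclasses together were a larger share on HFD than on NCD in WT mice, 20.6%, 15.3% and 22.6% against 8.22% and 7.95%, although each of them was lower in TPM. In Casp11-/- mice the groups overlapped, with 15.5%, 11.6% and 6.11% on HFD against 7.49%, 6.78% and 9.42% on NCD.

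In WT-NCD replicate 3 the switched share was 71.3%, with IgG at 57.2% and Igha at 14.1%, at a summed heavy-chain level of only 77.2 TPM. The mean switched share of WT-NCD was 82.7% ± 10.03 (SD, n = 3) with it and 88.3% ± 2.91 (SD, n = 2) without it. The means were 42.6% ± 6.79 in WT-HFD, 53.0% ± 27.1 in Casp11-/- NCD and 22.1% ± 13.9 in Casp11-/- HFD (SD, n = 3 each).

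**Figure D3:**
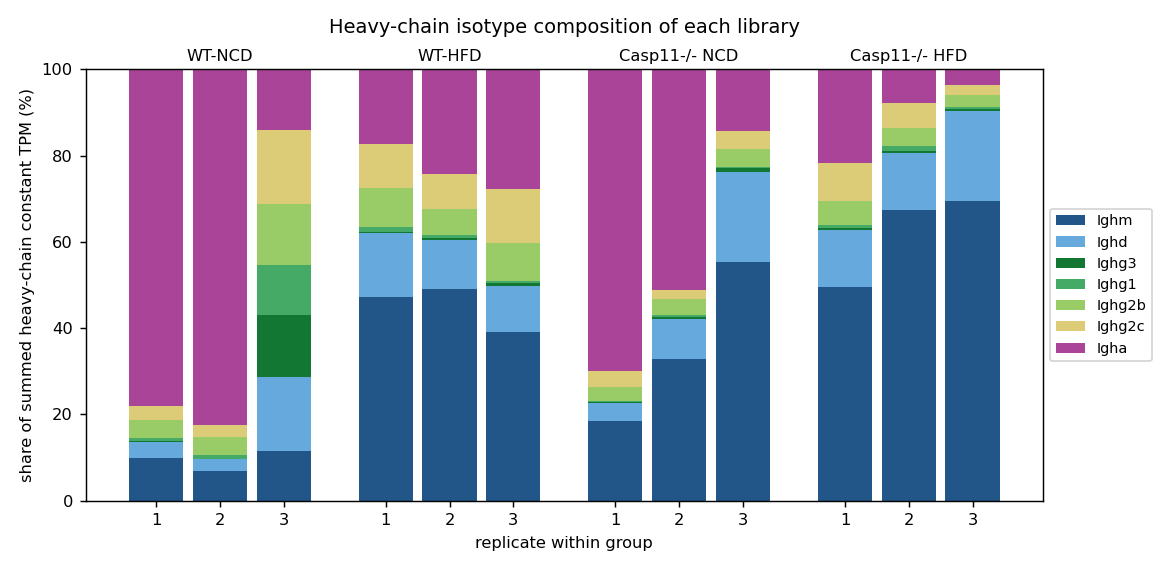
Share (%) of the summed TPM of 7 heavy-chain constant genes that each isotype held, as 1 stacked bar for each of the 12 libraries. IgA (purple) fills most of the bars of WT-NCD replicates 1 and 2 (78.0% and 82.4%) and of Casp11-/- NCD replicate 1 (69.9%), and IgM and IgD (blue) fill most of the Casp11-/- HFD bars.

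The ratio of Igha to Ighm put the same contrast into 1 value. It was 7.92 and 11.8 in WT-NCD replicates 1 and 2, and 0.366, 0.493 and 0.708 in WT-HFD. The Casp11-/- libraries had ratios of 3.78, 1.55 and 0.259 on NCD and 0.437, 0.115 and 0.0521 on HFD. Igha exceeded Ighm in 4 of the 5 NCD libraries other than WT-NCD replicate 3 and in none of the 6 HFD libraries.

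Other ratios among the members stayed within narrower limits. Igkc was 1.07 to 1.99 times the summed heavy chains in the 11 libraries, and Ighm was 2.54 to 5.04 times Ighd. Jchain was 0.127 to 0.308 of Igha in the 5 NCD libraries and 0.361 to 0.868 of it on HFD, so Jchain was less reduced than Igha. Kappa was more abundant than lambda in each of the 11 libraries, and the ratio of Igkc to the sum of Iglc1, Iglc2 and Iglc3 was 41.5 and 43.0 in WT-NCD replicates 1 and 2, 44.3 in Casp11-/- NCD replicate 1 and 7.18 to 20.6 in the other 8 libraries. In WT-NCD replicate 3 this ratio was 0.331.

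Cd79a and Cd79b encode the signalling chains of the B cell receptor, which B cells carry and which plasma cells express at lower levels, so the members were also set against their sum in each library. Igkc was 39.4 and 37.4 times this sum in WT-NCD replicates 1 and 2, and 11.1, 9.98 and 15.1 times in WT-HFD. The Casp11-/- libraries had Igkc at 32.5, 11.1 and 6.18 times on NCD and 13.4, 9.08 and 5.07 times on HFD. Igha was 15.5 and 19.2 times the sum in the same WT-NCD libraries and 1.31, 1.54 and 2.59 times in WT-HFD, and 12.8, 4.04 and 0.833 times in Casp11-/- NCD against 1.76, 0.561 and 0.158 times in Casp11-/- HFD.

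Ighm behaved otherwise. It was 1.96 and 1.63 times the sum of Cd79a and Cd79b in WT-NCD replicates 1 and 2 and 3.58, 3.12 and 3.67 times in WT-HFD, so relative to the B cell receptor genes it was higher on HFD. Xbp1 too was higher relative to them, at 0.282 and 0.389 on NCD against 0.628, 0.846 and 0.525 on HFD in WT mice. In Casp11-/- mice Xbp1 was at 0.281, 0.301 and 0.161 on NCD and at 0.692, 0.851 and 0.287 on HFD, and the groups overlapped. Ighm was 3.39, 2.60 and 3.21 times the sum in Casp11-/- NCD and 4.02, 4.88 and 3.02 times in Casp11-/- HFD, where the groups overlapped. With the 11 libraries, Cd79a and Cd79b fell furthest among the 17 tested B cell genes in WT mice. Their log2 fold changes were -2.92 and -2.88, against -1.61 for Ms4a1, so ratios to other B cell genes can differ from these.

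**Figure D4:**
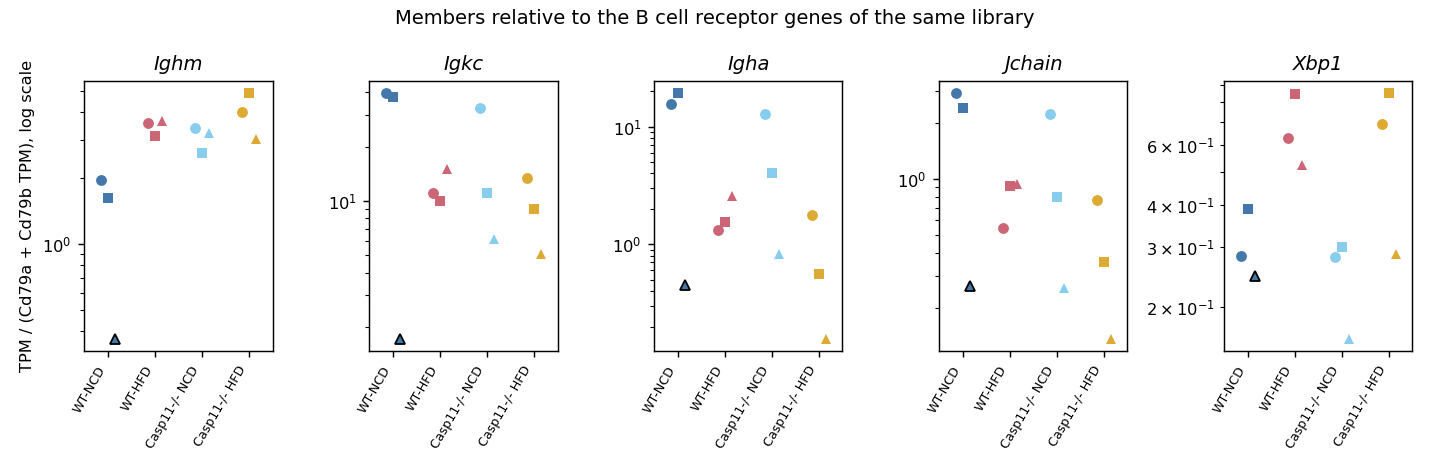
TPM of Ighm, Igkc, Igha, Jchain and Xbp1 divided by the summed TPM of Cd79a and Cd79b in the same library, on log axes, with 1 point for each of the 12 libraries (shapes for replicates 1, 2 and 3 as circle, square and triangle, WT-NCD replicate 3 outlined). Igkc, Igha and Jchain are highest in WT-NCD replicates 1 and 2 and Casp11-/- NCD replicate 1, where Igkc is 39.4, 37.4 and 32.5 times the sum, whereas Ighm stays between 1.63 and 4.88 times outside WT-NCD replicate 3.

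The genotypes were compared within each diet, with the question whether loss of caspase-11 goes with another isotype makeup. On NCD, with the 11 libraries, no member passed the test between Casp11-/- and WT mice. Casp11-/- minus WT was -2.85 for Igha (SE 0.928, adjusted p = 0.552), -2.56 for Ighg1 (SE 0.640, adjusted p = 0.224), -1.95 for Ighg2b (SE 0.711, adjusted p = 0.855) and -2.34 for Jchain (SE 0.777, adjusted p = 0.587), whereas Ighm was at +0.21 (SE 0.694, adjusted p = 1), Ighd at -0.20 (SE 0.662, adjusted p = 1) and Ighg3 at -0.18 (SE 0.718, adjusted p = 1). The limma fit called 0 of 10 members, against 0.0557% of all genes called lower and 0% called higher. Igha, Ighg1 and Ighg2b were lower in all 3 Casp11-/- NCD libraries than in both WT-NCD libraries, as were 2.64% of all genes.

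The comparison on NCD depended on single libraries. Casp11-/- NCD replicate 1 was close to WT-NCD replicates 1 and 2 in Igha, Igkc and Jchain, and without it 5 of 10 members were called lower, namely Igha, Ighg1, Ighg2b, Igkc and Jchain, against 0.956% of all genes. That library was singled out after its values were seen. Replicate 2 was below replicate 1 in every member, and replicate 3 combined high Ighm and Ighd with low Igha. That replicate 3 also held the most Hba-a1, the alpha globin of erythroid cells, at 10092 TPM against 133 to 3392 TPM in the other 10 libraries; its part in the result was not tested. With all 12 libraries the sign of Igha turned to +0.60 (SE 2.44), and limma called 0 members.

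On HFD the genotypes overlapped in every member, whereas 3.11% of all genes were lower in Casp11-/- mice with no overlap. With the spread of the 11 libraries Casp11-/- minus WT was -1.77 for Igha (SE 0.830, 95% confidence interval -3.48 to -0.06), -1.36 for Ighg2c (SE 0.734), -1.31 for Ighg2b (SE 0.636), -1.29 for Jchain (SE 0.695) and +0.08 for Ighm (SE 0.621), each with an adjusted p = 1 from limma. It called 0 members, as it called 0% of all genes in either direction. The switched share was 37.8% to 50.3% in WT-HFD and 9.74% to 37.2% in Casp11-/- HFD, with no overlap between the 3 libraries of each group, but the closest values were 37.8% and 37.2%.

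The interaction, the diet difference in Casp11-/- minus that in WT mice, passed the test in no member. With the 11 libraries it was +1.90 for Ighg1 (SE 0.859, adjusted p = 0.9998), +1.54 for Igkc (SE 1.19, adjusted p = 0.9998), +1.09 for Igha (SE 1.24, adjusted p = 0.9998) and -0.14 for Ighm (SE 0.932, adjusted p = 0.9998). The limma fit called 0 of 10 members, against 0.00557% of all genes called higher. With all 12 libraries it called 0 members as well, and the sign of Igha and Igkc was negative. A difference of the diet effects was therefore not detectable, and the 95% confidence interval for Igha ran from -1.48 to 3.65.

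The genes most like each member over the 11 libraries, out of 17950, were other immunoglobulin genes for Igha, Ighg1, Ighg2b and Jchain. The closest to Igha were the kappa variable genes Igkv5-43 (r = 0.990), Igkv4-57 (r = 0.983) and Igkv4-91 (r = 0.980), and the same genes were closest to Jchain (r = 0.996, 0.989 and 0.986). The closest to Igkc were Igkv19-93, Igkv5-48 and Txndc5, a protein disulphide isomerase of the endoplasmic reticulum (r = 0.994, 0.993 and 0.993). The closest to Ighg1 were Igkv12-44, Ighv9-3 and Ighv1-64 (r = 0.979, 0.978 and 0.971) and to Ighg2b Ighv9-3, Ighv1-12 and Igkv3-4 (r = 0.989, 0.988 and 0.984).

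The 3 closest genes of Ighm, Ighd and Ighg3 held no immunoglobulin gene. Ighd was closest to Myo1e, Fcer2a and Bin1 (r = 0.993, 0.992 and 0.992), of which Fcer2a encodes CD23, the low-affinity IgE receptor of mature B cells. Ighm was closest to Srebf2, Snn and Hdhd5 (r = 0.989, 0.988 and 0.986), Ighg3 to Rsl24d1, Babam1 and Rfc2 (r = 0.987, 0.987 and 0.983), and Ighg2c to Gzmk, Ighv8-8 and Spcs2 (r = 0.970, 0.965 and 0.964). Xbp1 was closest to Igkv1-110, Igkv3-5 and Sec61a1, a subunit of the translocon (r = 0.985, 0.984 and 0.981). The 11 libraries differ in diet and in cell mixture, and genes that vary with either can reach such values.

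Other genes of the plasma cell programme were taken from a list written from general knowledge, with earlier results of these data known. With the 11 libraries, 15 of 19 tested genes of the list fell in WT mice and 5 of 19 in Casp11-/- mice, and none rose (limma, adjusted p under 0.05), beside 2.04% and 0.986% of all genes called lower. Of the 15, Eaf2 and Tnfrsf17 were listed at the floor in all 6 HFD libraries and passed the filter on low values only through NCD libraries, so they had to differ, and 13 are left without them. The median over the list was -2.32 in WT and -1.35 in Casp11-/- mice, beside -0.27 and -0.51 over all genes. Since earlier results were known when the list was written, nothing is read from that median or from these counts. With all 12 libraries 0 genes of the list passed in either genotype. When the protein-coding genes of the 11 libraries were set to a common total, which moved the median of all genes to +0.29 in WT and -0.05 in Casp11-/- mice, 9 and 5 genes of this list fell and 1 had a positive value in each genotype.

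Derl3, which takes part in the degradation of misfolded secretory proteins, had 96.7, 103 and 9.90 TPM in WT-NCD and 1.24 to 3.49 TPM in WT-HFD. It fell by 5.05 on the log2 scale in WT mice (SE 0.677, limma adjusted p = 7.14e-05) and by 2.87 in Casp11-/- mice (SE 0.605, adjusted p = 0.0211). Mzb1, a chaperone of immunoglobulin assembly in plasma and marginal zone B cells, fell by 4.64 (SE 0.649, adjusted p = 0.000103) and by 2.75 (SE 0.580, adjusted p = 0.0211). Mzb1 had 153, 152 and 14.7 TPM in WT-NCD and 135, 16.3 and 22.5 TPM in Casp11-/- NCD, against 3.31 to 8.23 TPM in the 6 HFD libraries.

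Tnfrsf17, which encodes the survival receptor BCMA of plasma cells, had 25.4, 22.7 and 9.78 TPM in WT-NCD and 19.5, 2.62 and 1.81 TPM in Casp11-/- NCD. In the 6 HFD libraries it was listed at the floor of 1.01 TPM, so its call is not read. The plasma cell transcription factors Prdm1 and Irf4 fell by 2.32 (SE 0.567, adjusted p = 0.0241) and by 2.61 (SE 0.664, adjusted p = 0.0327) in WT mice, and Irf4 fell by 2.63 in Casp11-/- mice (SE 0.594, adjusted p = 0.0283). The other genes of the list that fell in WT mice were Creld2, Edem2, Ell2, Fkbp11, Pou2af1, Sec11c, Tent5c, Tnfrsf13b and Txndc5, and Pou2af1 and Tent5c also fell in Casp11-/- mice.

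Sdc1, the gene of the plasma cell surface marker CD138, did not pass in either genotype. It had 30.3, 28.4 and 4.03 TPM in WT-NCD, and was at 10.5 to 11.7 TPM in WT-HFD, at 19.4 to 32.6 TPM in Casp11-/- NCD and at 14.4 to 19.1 TPM in Casp11-/- HFD. Hepatocytes express Sdc1 too, and hepatocyte markers were abundant in the 11 libraries.

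The targets of XBP1 and other genes of the unfolded protein response differed less. Of 20 tested, Pdia4, Sdf2l1 and Syvn1 fell in WT mice, and Syvn1 alone fell in Casp11-/- mice, with a median of -1.28 and -0.82 over the list. With the common protein-coding total 1 gene fell in each genotype, and 4 of 20 in WT and 7 of 20 in Casp11-/- mice had a positive value. Sdf2l1, a chaperone partner of the endoplasmic reticulum, fell by 2.63 (SE 0.566, adjusted p = 0.00807), Pdia4, a disulphide isomerase, by 2.33 (SE 0.571, adjusted p = 0.0245) and Syvn1, a ubiquitin ligase that removes misfolded proteins, by 1.94 (SE 0.491, adjusted p = 0.0319) in WT mice. Hspa5, the chaperone BiP, had 274, 272 and 5.09 TPM in WT-NCD and 148, 72.8 and 124 TPM in WT-HFD, and did not pass.

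**Figure D5:**
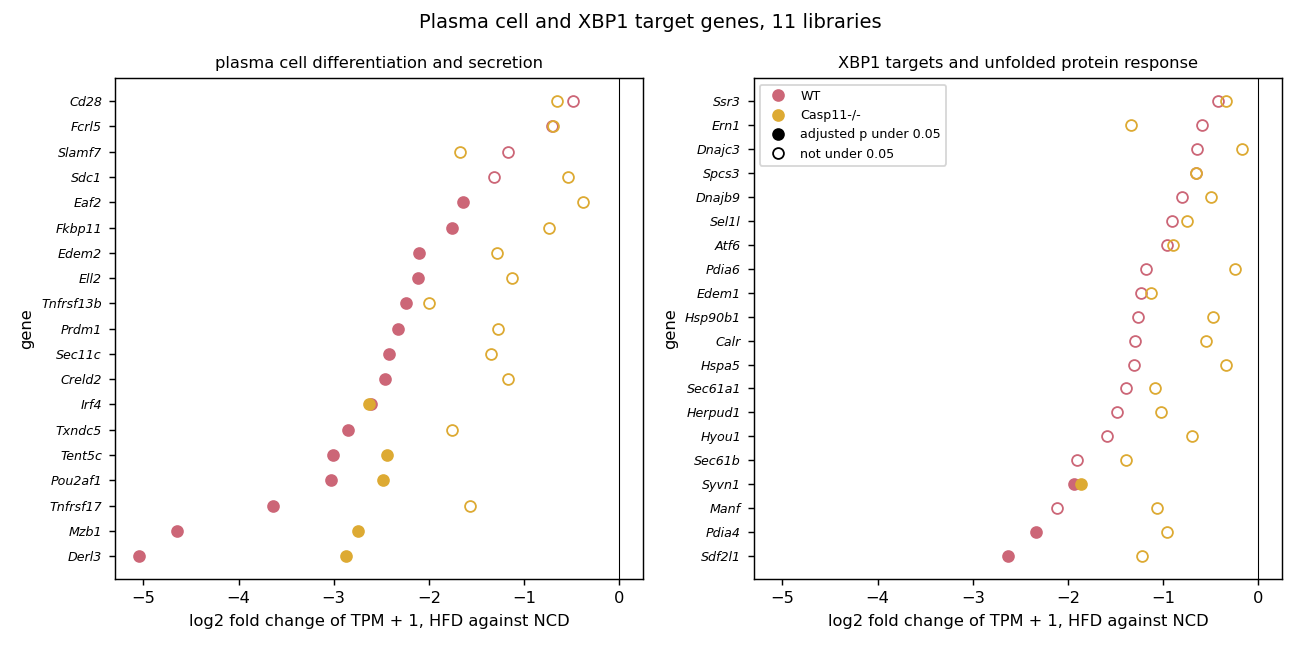
Log2 fold change of TPM + 1, HFD against NCD, over 11 libraries, for the 19 tested genes of the plasma cell list and the 20 of the XBP1 target list, sorted by the WT value. Filled points passed limma at an adjusted p under 0.05, which was so for 15 and 3 genes in WT and 5 and 1 in Casp11-/- mice, and all points lie below 0, although 1 and 4 WT genes and 1 and 7 Casp11-/- genes turn positive with a common protein-coding total.

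Of 14 tested genes of the machinery of class switch recombination, 0 passed limma in either genotype. The 2 of highest mean TPM were the repair endonuclease Apex1, at 7.23 to 20.2 TPM in the 5 WT libraries and 7.32 to 21.7 TPM in Casp11-/- mice, and Rif1, which protects broken DNA ends, at 6.28 to 9.64 TPM and 4.97 to 26.3 TPM. Among signals for switching and plasma cell survival, Itgb7, a homing receptor of IgA plasma cells, fell in WT mice by 2.26 (SE 0.606, adjusted p = 0.0472), and 0 of 15 tested passed in Casp11-/- mice. Ccr10, another such receptor, passed the filter only through NCD libraries, so its call in WT mice is not read. Ccr10 had 6.29, 6.40 and 7.71 TPM in WT-NCD, was at 4.72 TPM in Casp11-/- NCD replicate 1 and was listed at the floor in the other 8 of the 11 libraries.

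Of 17 tested B cell genes, 6 fell in WT mice and 9 in Casp11-/- mice, with a median of -2.17 over the list in each, and with the common protein-coding total 3 and 8 fell. Cd79a fell by 2.92 in WT mice (SE 0.597, adjusted p = 0.00503) and by 2.45 in Casp11-/- mice (SE 0.534, adjusted p = 0.0243), and Cd79b, Cd22 and Fcer2a also fell in both. The other light-chain genes fell in 6 of 7 tested in WT mice and 7 of 7 in Casp11-/- mice, with Iglv1 at -4.74 (SE 0.531, adjusted p = 2.42e-05) and -3.97 (SE 0.475, adjusted p = 0.000232). Of 11 immunoglobulin receptors, the IgM receptor Fcmr alone fell, by 2.96 in WT mice (SE 0.599, adjusted p = 0.00457) and by 2.27 in Casp11-/- mice (SE 0.536, adjusted p = 0.0366). Pigr, the receptor that carries IgA into bile, had 290, 175 and 3.46 TPM in WT-NCD and 269, 108 and 108 TPM in WT-HFD, and did not pass.

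Markers of other cell types moved with the diet as well. Of 12 Kupffer cell and macrophage genes, 7 rose on HFD in WT mice and 5 in Casp11-/- mice, beside 0.134% and 0.117% of all genes called higher. These were led by the Kupffer cell genes Cd5l at +4.21 (SE 0.528, adjusted p = 5.3e-05), Vsig4 at +3.62 (SE 0.545, adjusted p = 0.000214) and Clec4f at +3.23 (SE 0.583, adjusted p = 0.00136) in WT mice. The 7 also include Marco at +1.48 (SE 0.350). Its difference between the NCD groups was 2.2e-16, as for a gene at the floor in all NCD libraries of the fit. Such a gene passes the filter only through HFD libraries, so the call of Marco is not read. The summed TPM of 6 macrophage markers was 70.0 and 113 in WT-NCD replicates 1 and 2 and 234 to 635 in WT-HFD, and 46.9 to 337 in Casp11-/- NCD and 241 to 357 in Casp11-/- HFD. T cell genes passed in 0 of 10 in WT mice and 1 of 10 in Casp11-/- mice (Cd2), and NK cell genes in 2 of 8 (Gzma and Prf1, lower) and 0 of 8. Neutrophil genes passed in 2 of 10 (Elane and Mpo, lower) and 0 of 10. Elane was at the floor in all 6 HFD libraries and passed the filter only through NCD libraries. Its call is therefore not read, and 1 neutrophil gene is left without it. Hepatocyte genes passed in 0 of 10 in each genotype, dendritic cell genes in 0 of 9 in each, and erythroid genes in 0 of 5 and 4 of 5 (lower). The part of these cell types in the levels of the members was not tested. With all 12 libraries, Cd5l and Vsig4 in WT mice were the only genes of these lists that passed in either diet comparison.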

How the data were processed

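Total RNA libraries of the liver immune cell fraction (12 mice, 3 per group) were made by the authors with random priming and a stranded kit. Per the labels, single-end reads of 75 bases were aligned with STAR to mm10 (GRCm38.p6), and the authors computed TPM in Qlucore Omics Explorer before deposition. The deposited values are treated as a score, since their totals exceed that of TPM and low values sit at a floor whose origin is not given in the sources used here. The header inside 1 file (Casp11-/- HFD replicate 2) is named unlike the others, and its group was taken from the labels. In each file 6 rows without a gene name were left out, and no 2 libraries were identical (0 pairs).

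Log2(TPM + 1) was fitted with limma 3.58.1 in R 4.3.3 (trended empirical Bayes, 1 spread for the 4 groups) over genes that exceeded the floor in 3 or more libraries, 19498 with 12 and 17950 with 11 libraries. Tests were two-sided, with Benjamini-Hochberg adjustment over all genes and calls under 0.05. Fold changes on this scale understate those of low genes. The fit was tested on simulated data first. Ratios, shares and correlations were computed with Python 3.11.15, pandas 2.3.3 and numpy 2.4.6. The members and the gene lists were chosen with earlier results of these data known, so counts of called genes in the lists are given as a description. Genes named are the 10 members, for each the 3 genes most correlated over 11 libraries, the called genes of each list or else the 2 of highest mean TPM, and Casp4; Sdc1, Hspa5, Pigr and Hba-a1 were chosen after their values were seen. Not all genes that the rule allows are printed, and some are not reported here. Alternatives were other filters, pseudocounts (0.1 and 10), scalings, spreads, library weights, a replicate block and each library left out. Replicate numbers were not treated as pairs outside the replicate block.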

Additional observations from a re-analysis of the deposited data

How the results depend on the processing

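The values rest mainly on WT-NCD replicate 3. Without it, HFD minus NCD was negative for all 10 members in both genotypes under each alternative run, with Ighm at -1.97 in WT mice in place of +0.47 (-1.22 with protein-coding genes also set to a common total). With it, library weights gave Ighm -1.82, and a common protein-coding total gave Xbp1 0.22 in WT mice. Over single libraries left out, the WT diet value ranged from -1.97 to 1.76 for Ighm, -2.47 to 0.34 for Ighd, -2.64 to 0.055 for Ighg2c, -4.62 to 0.23 for Igkc and -1.93 to 0.90 for Xbp1. For Ighm in the 11 libraries, Casp11-/- minus WT ranged from -0.25 to 0.94 on NCD and from -0.34 to 0.37 on HFD, and the interaction from -0.86 to 0.33. Counts of called members, 0 in each of the 5 comparisons with all 12 libraries, ranged over libraries left out from 0 to 10 for each diet comparison. They ranged from 0 to 5 for the genotypes on NCD, and stayed at 0 for the genotypes on HFD and the interaction. The fit without WT-NCD replicate 3 and Casp11-/- NCD replicate 2, which gave 10 in both diet comparisons, called 5.78% (WT) and 46.1% (Casp11-/-) of all genes lower.

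Without WT-NCD replicate 3, the WT and Casp11-/- diet counts were 5 and 3 with a common protein-coding total (1.15% and 0.73% of all genes called lower). They were 6 and 5 with the spread of the groups compared (2.64% and 0.925%). Library weights, whose estimation stopped before it converged, gave 10 members in the WT diet comparison and 4 on HFD between genotypes with all libraries. The share of all genes called in that fit is not given here, so its counts cannot be judged. Without WT-NCD replicate 3 the weights gave 10 in each diet comparison, but called 35.4% (WT) and 54.6% (Casp11-/-) of all genes lower. They gave 2 on NCD (7.08%) and 1 for the interaction (8.46%), where Igha was at -1.71 and Jchain at -1.25. Nothing is read from these counts. A replicate block gave 0 members with 12 libraries in each comparison. Without WT-NCD replicate 3 the block gave 8 and 9 members in the diet comparisons (6.04% and 5.97% of all genes called lower) and an Ighm interaction of 0.067. Whether the replicate numbers pair the samples, for example through a shared batch, is not known. Deviations of same-numbered libraries correlated at over 0.1 in 8 of 15 pairs, from -0.33 to 0.47, and 6 of 11 libraries correlated best with their own number. Other filters and pseudocounts changed no count with 12 libraries. With a library left out, the mean switched share ranged from 78.8% to 88.3% in WT-NCD, 38.7% to 44.9% in WT-HFD, 40.8% to 67.6% in Casp11-/- NCD and 14.6% to 28.3% in Casp11-/- HFD, and that of Igha from 46.1% to 80.2%, 20.7% to 26.0%, 32.7% to 60.5% and 5.68% to 14.7%. No read counts were given, so the limit set by depth is unknown.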
